A study of Mus musculus with 34 samples.

Results

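Cortical astrocytes of mice aged 18 months (18m) were compared with those of mice aged 12 months (12m) across all genes measured. The comparison used 7 of the 34 libraries of the series, 3 at 12m and 4 at 18m. The libraries were chosen by their age labels and not by any measured value. Both ages were wild-type (WT) male mice without treatment in the labels, and the cells were isolated magnetically from the cortex. Polyadenylated RNA was amplified with a low-input kit (SMART-Seq v4) and sequenced. The labels do not say that the libraries came from separate animals, so p-values measure only the spread between these libraries.

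Levels are given as TPM, the share of a gene among all transcripts of a library after correction for transcript length, so that levels can be compared between genes. The depth of each library is unknown, because TPM keep no read counts. Fold changes are differences of log2(TPM + 1), 18m minus 12m, with their standard error (SE), and they understate changes of genes of low level. A gene is said to have risen or fallen where limma gave a Benjamini-Hochberg adjusted p under 0.05 over all 14590 genes tested. Because that fit takes its spread from all 34 libraries, the same test on the 7 libraries alone is given as a second value: it called 0 genes (0.0%), with 3729 genes at an unadjusted p under 0.05 and a smallest adjusted p of 0.0547. A change written as n-fold is the ratio of the mean TPM of the ages.

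Astrocytes are glial cells that take up glutamate and GABA released at synapses, buffer potassium and water, supply lactate and cholesterol to neurons, and are coupled to each other by gap junctions. In disease and in old brains they can take on reactive states, in which intermediate filament, complement and antigen presentation genes are raised. The astrocyte identity of the 7 libraries was clear from the marker genes. Apoe, which encodes the main lipid carrier protein made by astrocytes, was at 44620 to 51750 TPM at 12m and 50440 to 54680 TPM at 18m. The 24 mature astrocyte markers summed to 82200 to 87280 TPM at 12m and 86530 to 94750 TPM at 18m, a sum of which Apoe made up the larger part. Transcripts of other cells were present as well. Haemoglobin and other erythroid markers summed to 10860 to 45690 TPM at 12m and 9037 to 35200 TPM at 18m, and endothelial markers to 3476 to 4870 TPM and 2126 to 4932 TPM.

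In a pair of the libraries other properties stood apart. At 12m, replicate 3 had 1615 genes at 0 TPM, where replicates 1 and 2 had 4556 and 4532 and the 18m libraries 4109 to 4654. The libraries at 3 and 6 months, which are in the same fit, had 1155 to 1704, a range that includes 12m replicate 3. At 18m, replicate 1 gave 19.5% of its TPM to its 10 most abundant genes, against 16.3% to 17.1% in the other 18m libraries, and its median-of-ratios size factor was 0.725 against 0.918 to 0.993. Results are therefore given with each of these libraries left out.

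The balance of the calls was heavily towards lower levels at 18m. Of the 14590 genes tested, 2940 were called (20.2%), 222 of them higher (1.52%) and 2718 lower (18.6%). The median fold change of all tested genes was -0.21, so a gene that kept its place among the others was itself slightly lower in TPM. When each library was rescaled by its median of ratios the median became 0.00, and 2207 genes were called (15.1%), with 1206 higher (8.27%) and 1001 lower (6.86%). All 222 of the higher calls and 1001 of the lower calls held after rescaling. Without 12m replicate 3, 1686 genes were called (11.6%), 217 higher (1.49%) and 1469 lower (10.1%), and of the calls made with all libraries 130 of 222 and 1334 of 2718 held. Without 18m replicate 1 the count was 847 (5.81%), with 85 higher (0.583%) and 762 lower (5.22%), and without 12m replicate 1 it was 1388 (9.51%), with 67 higher and 1321 lower. With 12m replicate 3 and 18m replicate 1 both left out, 215 genes remained called (1.47%), 64 higher and 151 lower. In the settings tried, no gene called with all libraries was called in the opposite direction. The 7 libraries did not overlap between ages for 493 genes higher at 18m (3.38%) and 3610 genes lower (24.7%), 28.1% in all.

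The direction of change followed transcript length. The median longest coding transcript was 1100.5 bases for genes called higher, 5110 bases for genes called lower and 3084 bases for all genes tested. Across the genes, which are not independent replicates, Spearman's rho between fold change and length was -0.58, and it was -0.51 without 12m replicate 3, -0.51 without 18m replicate 1 and -0.45 without both. The same relation was seen library by library. The level of a gene relative to its mean over the 34 libraries had a rho with length of 0.44, 0.23 and 0.37 in the 12m libraries and of -0.59, -0.52, -0.38 and -0.39 in the 18m libraries. Libraries of other ages lay between these extremes, from -0.55 in replicate 5 at 6 months to 0.41 in replicate 2 at 3 months. After a smooth trend on the longest transcript was removed from each library, 204 genes were called (1.4%), 128 higher (0.879%) and 76 lower (0.522%). With the median length of a gene's coding transcripts in its place, 373 were called (2.56%), 187 higher and 186 lower. Of the genes called in the first place, 47 higher and 74 lower held with both measures of length. Whether a call held in these settings is stated below for the genes described singly.

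**Figure D1:**
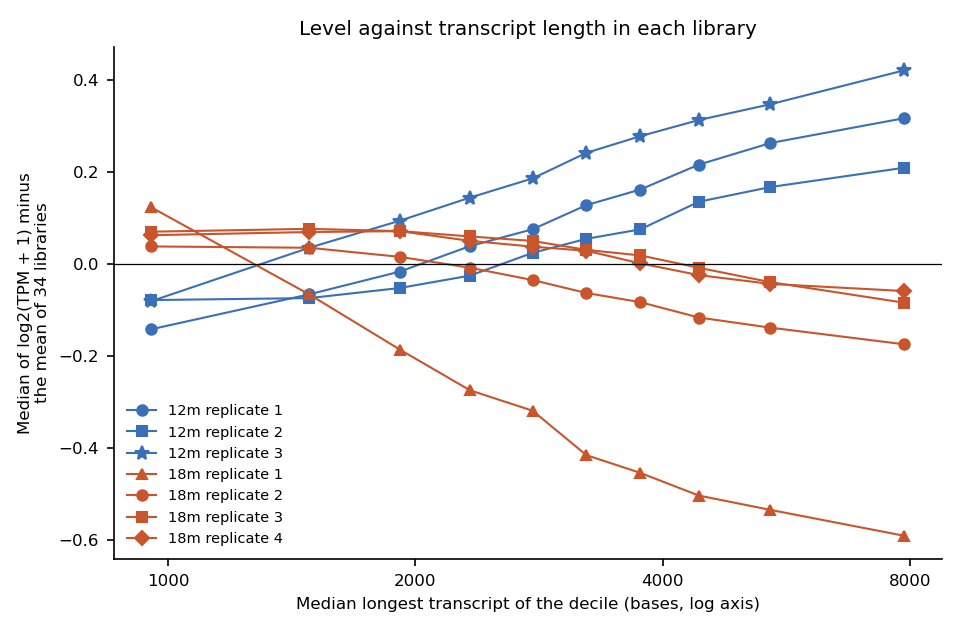
The vertical axis gives the median of log2(TPM + 1) minus the gene's mean, over about 1040 genes a decile. That mean is over the 7 libraries shown, although the axis label names 34, so levels are relative to these libraries alone. The horizontal axis gives the median longest coding transcript of the decile in bases. Each line is 1 library, blue for 12m and orange for 18m; in the decile of longest transcripts the 12m libraries lie at 0.21 to 0.42 and the 18m libraries at -0.59 to -0.06, and 18m replicate 1 has the steepest slope.

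The largest rises without overlap between ages were led by Inmt, an indolethylamine N-methyltransferase. Inmt was at 8.39, 0.879 and 7.68 TPM at 12m and at 52.5, 19.5, 48.2 and 49.3 TPM at 18m. All 18m libraries lay above all 12m libraries, and the mean was 7.5-fold higher (log2 fold change 2.92 ± 0.82 (SE), adjusted p = 0.0153). It was not called without 12m replicate 2 (0.0904), without 18m replicate 1 (0.0586) or after removal of the trend on the longest transcript (0.0641). Serpinf1, which encodes the secreted protein PEDF, was at 71.7, 22.9 and 128.9 TPM at 12m and at 188.3, 151.2, 190.4 and 148.9 TPM at 18m. Its change of 1.48 ± 0.39 (adjusted p = 0.0109) held in both length settings, but not without 12m replicate 2, the lowest library (0.80, adjusted p = 0.106). Igfbp2, an insulin-like growth factor binding protein made by astroglia, rose 2.12-fold from 510.9 ± 97.6 TPM (SD, n = 3) to 1083 ± 147 TPM (SD, n = 4). The 3 libraries at 12m had 491.2, 424.6 and 616.9 TPM and the 4 at 18m had 1262, 940.5, 1143 and 988.1 TPM, without overlap. Igfbp2 held in both length settings and in every setting that left out a library (adjusted p = 0.0069 with all libraries).

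Several of the other large rises were in genes of low level or of duplicated loci. Plac9b and Plac9a lie at chr14:26167405-26182480 and chr14:25887506-25903100 on GRCm38, and Tmem254b lies beside Plac9b at chr14:26203369-26207041. Plac9b was at 80.0, 57.1 and 127.4 TPM at 12m and at 352.7, 263.0, 275.3 and 282.4 TPM at 18m. Plac9a rose 3.42-fold and Tmem254b rose 2.23-fold, and a further copy, Tmem254c, chosen after its values were seen, rose 1.93-fold. How the reads of such near-identical copies were divided is uncertain, so the values describe the copies together. All 4 held in both length settings and with each library left out. Serf1, a small gene of another duplicated region (chr13:100108012-100114571), was at 30.0, 30.5 and 35.4 TPM at 12m and at 69.5, 62.8, 76.6 and 72.6 TPM at 18m (1.12 ± 0.19, adjusted p = 0.00153), and held in the same settings. Ctsw, a protease of cytotoxic lymphocytes, rose from 2.63, 1.46 and 0.737 TPM to 19.8, 4.25, 4.16 and 3.98 TPM, and the highest value was that of 18m replicate 1. In that library the 8 T cell and lymphocyte markers tested also reached their highest sum of all 7 libraries, 43.5 TPM, although none of them was called. The part of such cells in the Ctsw change was not tested.

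The remaining rises of this size were Hpx, Slc6a13, Emp3 and Cox8b. Hpx, the haem-binding protein haemopexin, rose 3.37-fold to a mean of 6.80 TPM. Emp3, an epithelial membrane protein, rose 2.07-fold, and Cox8b, a cytochrome c oxidase subunit isoform, rose 2.23-fold from a mean of 3.01 TPM. These 3 genes were not called when the trend on the longest transcript was removed (adjusted p = 0.0603, 0.130 and 0.201) or when 18m replicate 1 was left out (0.0624, 0.108 and 0.0677).

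Among genes without overlap between ages, the largest falls were led by Igsf1, an immunoglobulin superfamily membrane protein encoded on the X chromosome. Igsf1 was at 36.8, 30.8 and 80.6 TPM at 12m and at 3.96, 14.3, 19.1 and 14.7 TPM at 18m, a 3.80-fold lower mean (log2 fold change -1.89 ± 0.36, adjusted p = 0.00299). The fall of Igsf1 held in both length settings and with every library left out. Thbs4 and Ptprz1, described with their groups below, behaved likewise, as did Usp53 (from 26.4 ± 5.87 to 9.60 ± 1.64 TPM) and Abca5, a lipid transporter (from 10.7 ± 0.10 to 3.82 ± 1.19 TPM; SD, n = 3 and 4). Ptp4a1, a protein tyrosine phosphatase, had a fall of like size in 1 of the 2 identifiers that share its symbol (ENSMUSG00000026064, from 5.31 ± 1.13 to 0.793 ± 0.493 TPM), was left out of the ranking for that reason and was chosen here after its values were seen. Fmo2, a flavin-containing monooxygenase, was 5.23-fold lower, at 8.75, 8.43 and 5.47 TPM at 12m and at 0.880 to 2.09 TPM at 18m. Without the length trend its change was -1.48 with an adjusted p of 0.0813. The neuronal gene Rbfox3, the calcium sensor Caln1, the phosphodiesterase Pde2a, the xanthine dehydrogenase Xdh, the lipid flippase Atp10a and Wdfy1 also fell by 2.52-fold or more without overlap between ages, and their adjusted p without the length trend ran from 0.0637 (Wdfy1) to 0.229 (Caln1).

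**Figure D2:**
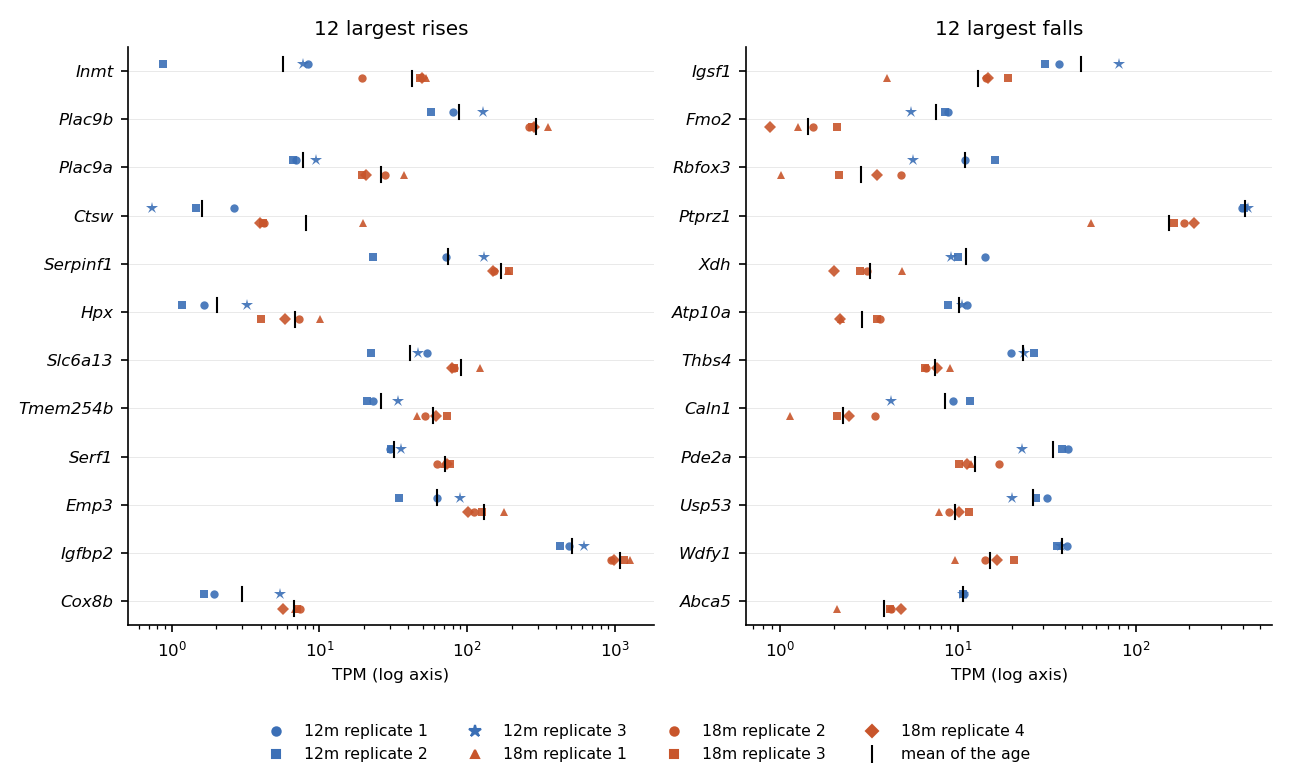
TPM on a log axis in each of the 7 libraries for the 12 largest rises (left) and the 12 largest falls (right) among genes that passed the filters on level, overlap, 12m replicate 3 and unique symbol, ordered by log2 fold change from the top. Blue symbols are 12m, orange symbols 18m, and black ticks the mean of each age; the ages do not overlap for any of these genes, which the choice of the genes required, and the triangle of 18m replicate 1 is often the extreme value.

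Of the 24 mature astrocyte markers 9 fell and 0 rose, against 18.6% and 1.52% of all tested genes, with a median change of -0.37. The falls numbered 5 without 12m replicate 3, 4 without 18m replicate 1 and 1 after removal of the trend on the longest transcript. The shares of all genes tested in these settings were 10.1%, 5.22% and 0.522%. The 9 genes that fell with all libraries were Gja1, Slc1a2, Slc1a3, Aqp4, Slc4a4, Mlc1, Atp1b2, Hepacam and Fgfr3. All but the growth factor receptor Fgfr3 are also on the lists of uptake or ion genes below.

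Many genes of neurotransmitter uptake fell at 18m. Of 17 genes of glutamate and GABA handling 9 fell and 0 rose, against 18.6% of all tested genes that fell, and the list's median change was -0.51 against -0.21 for all genes. Slc1a3, the glutamate transporter GLAST, was at 3324, 3321 and 3305 TPM at 12m and at 1870, 2620, 2417 and 2636 TPM at 18m. Slc1a2, the glutamate transporter GLT-1, was at 435.0, 500.0 and 364.2 TPM and at 223.1, 245.7, 215.3 and 258.9 TPM. All 18m libraries lay below all 12m libraries for both transporters. The log2 fold changes were -0.49 ± 0.14 (adjusted p = 0.0156) for Slc1a3 and -0.87 ± 0.23 (adjusted p = 0.0109) for Slc1a2. Without the trend on the longest transcript they were -0.16 (adjusted p = 0.517) and -0.33 (0.427), and without 18m replicate 1 Slc1a3 was not called (0.0948).

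Enzymes and receptors of the same list were among the falls. Abat, the GABA transaminase, fell from 115.6 ± 7.27 to 71.9 ± 14.7 TPM, and Glud1, glutamate dehydrogenase, from 246.5 ± 29.1 to 165.2 ± 20.5 TPM (SD, n = 3 and 4). The GABA receptor subunit Gabrg1, the monoamine oxidase Maob, the succinate semialdehyde dehydrogenase Aldh5a1 and the metabotropic glutamate receptor Grm5 fell by 1.41-fold (Aldh5a1) to 2.48-fold (Grm5). Glul, which makes glutamine from glutamate, did not pass the test, with 2419, 2956 and 1543 TPM at 12m and 1933, 2773, 1621 and 2493 TPM at 18m. These are long transcripts, with a median of 4163 bases, and 0 of the 17 genes was called after the length trend was removed, where the list's median was -0.20. After rescaling 3 were called lower and 1, the glutamine transporter Slc38a3, higher, against 6.86% and 8.27% of all genes tested. Without 12m replicate 3 the 9 falls were matched by 9 calls, against 10.1% of all genes. Without 18m replicate 1 there were 4, against 5.22%.

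Ion, water and gap junction genes fell as often, and Gja1 among them was still called once the length trend was removed. Of 17 such genes 10 fell and 0 rose, against 18.6% and 1.52% of all genes tested, with a median change of -0.47. Gja1, the main connexin of astrocyte gap junctions, was at 2422, 2839 and 2621 TPM at 12m and at 1055, 1450, 1365 and 1856 TPM at 18m. The highest 18m value lay well below the lowest 12m value (log2 fold change -0.90 ± 0.18, adjusted p = 0.00345). Gja1 was still called after removal of the length trend (-0.67, adjusted p = 0.0273), after rescaling (-0.65) and with any 1 library left out. Gjb6, the other main astrocyte connexin, was not called, and its levels overlapped between ages.

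Aqp4, the water channel of astrocyte endfeet, fell from 600.9, 579.2 and 736.1 TPM to 277.5, 377.0, 504.1 and 367.7 TPM (-0.77 ± 0.18, adjusted p = 0.00688). The sodium bicarbonate cotransporter Slc4a4 fell from 161.5 ± 11.8 to 89.2 ± 16.4 TPM. After removal of the trend on the longest transcript neither was called (adjusted p = 0.153 and 0.202), while Aqp4 was called with the median transcript length (0.0203). The potassium channel subunit Kcnj16, the sodium pump subunit Atp1b2, the aquaporin Aqp9, the endfoot proteins Dtna and Mlc1 and the adhesion protein Hepacam fell by 1.26-fold to 1.43-fold. Of the 10 falls in this group, the calls numbered 4 without 12m replicate 3 and 3 without 18m replicate 1, and 3 genes were called lower after rescaling. The shares of all genes tested in these settings were 10.1%, 5.22% and 6.86%. Kcnj10, the inward rectifier potassium channel Kir4.1, stood at 17.1 to 18.0 TPM and 10.9 to 17.5 TPM and was not called (adjusted p = 0.358).

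**Figure D3:**
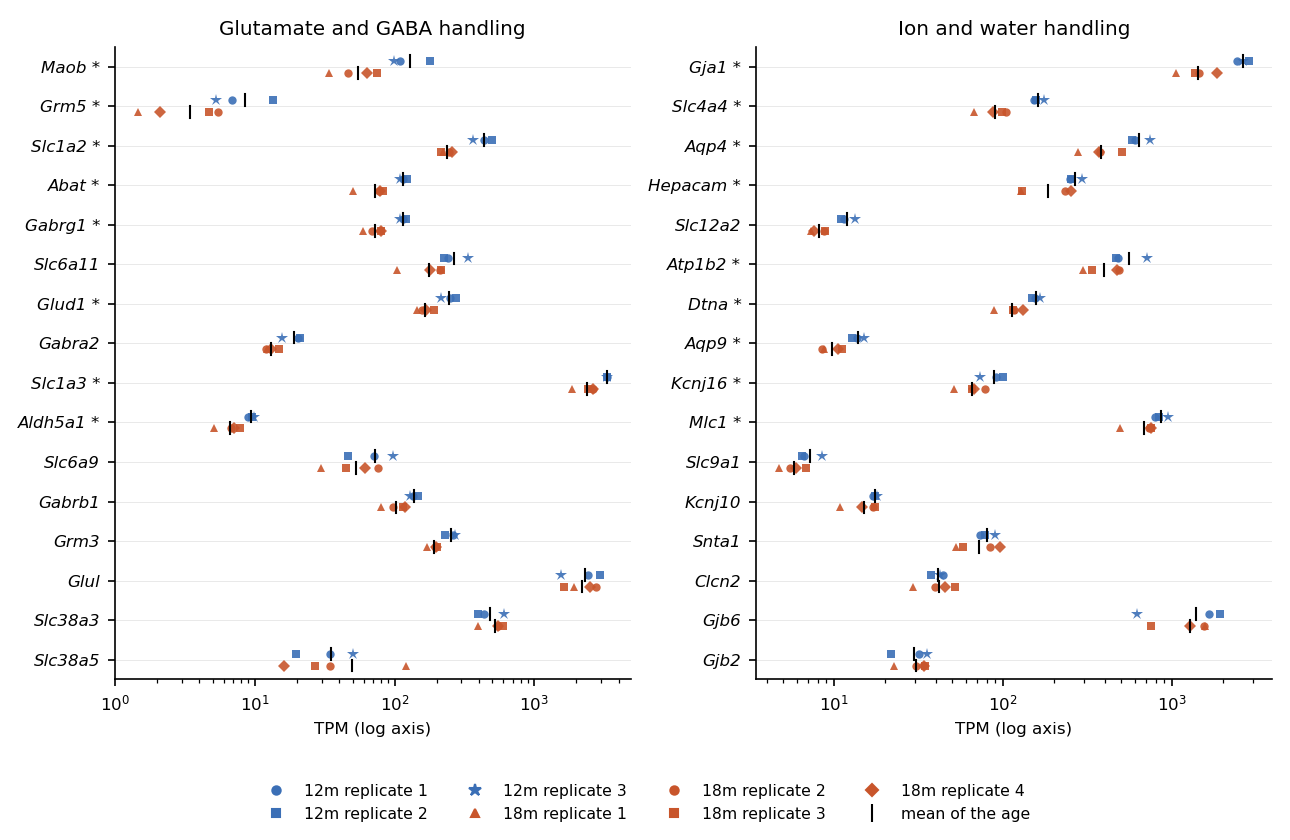
TPM on a log axis in each library for 16 of the 17 genes of glutamate and GABA handling (left) and 16 of the 17 genes of ion and water handling (right), ordered by log2 fold change; an asterisk marks a gene called at an adjusted p under 0.05. Blue symbols are 12m, orange symbols 18m and black ticks the means; most of the called genes lie towards the top with the 18m mean to the left of the 12m mean, whereas Glul, Slc38a3, Gjb6 and Gjb2 overlap.

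Among genes by which astrocytes act on synapses, Thbs4 changed most. Thrombospondin 4 is a secreted matrix protein of a family known to promote synapse formation. Thbs4 was at 19.8, 26.6 and 23.4 TPM at 12m and at 9.05, 6.58, 6.51 and 7.59 TPM at 18m. The 12m mean was 3.13-fold higher, and the difference was far larger than the spread at either age (-1.53 ± 0.23, adjusted p = 0.000476). Thbs4 stayed called in both length settings (-1.30, adjusted p = 0.00741 with the longest transcript) and without any 1 library (highest adjusted p = 0.00519). Of the 17 genes of this list 6 fell, against 18.6% of all genes tested, among them the glypican Gpc5, the matricellular protein Sparcl1 (5577, 5608 and 5504 TPM at 12m against 3475, 3964, 4357 and 4384 TPM at 18m), the phagocytic receptor Megf10 and the neuroligin Nlgn1. Thbs4 was the only one of the 6 to hold in both length settings, and the only gene of the list called without 18m replicate 1. After rescaling it was the only gene of the list called lower, and Thbs3 was called higher. Of all genes tested 5.22% were called lower without 18m replicate 1, and 6.86% lower and 8.27% higher after rescaling.

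Proteoglycan matrix genes included a second marked fall. Ptprz1, a receptor tyrosine phosphatase that carries chondroitin sulfate chains, was at 392.8, 407.4 and 427.3 TPM at 12m and at 56.0, 185.2, 164.6 and 211.9 TPM at 18m. The ages were separate even without the lowest library, 18m replicate 1, and the change was -1.56 ± 0.36 (adjusted p = 0.00568, and 0.034 without that library). Hapln1, a link protein that binds hyaluronan to lecticans, fell from 97.8 ± 29.6 to 47.6 ± 11.3 TPM (SD, n = 3 and 4). Ncan, the lectican neurocan, was called lower although 18m replicate 3, at 65.7 TPM, lay above every 12m library. These 3 were the only calls among the 11 genes of the list, where 18.6% of all genes tested fell. Ptprz1 alone held in both length settings.

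Genes of the circadian clock are transcriptional regulators that cycle over the day in most cells, and their level in a sample depends on the hour of collection, which the labels do not give. Of 19 clock genes tested, 8 fell and 0 rose, against 18.6% and 1.52% of all genes. Nr1d2, the repressor REV-ERB beta, was at 95.5, 82.7 and 96.5 TPM at 12m and at 28.4, 35.6, 60.5 and 43.3 TPM at 18m (-1.16 ± 0.23, adjusted p = 0.00325). Tef, a PAR bZIP activator of clock output genes, was at 122.1, 114.6 and 115.3 TPM and at 35.6, 68.4, 59.5 and 85.6 TPM (-0.97 ± 0.18, adjusted p = 0.00247). For both genes the ages did not overlap, and both held in the 2 length settings, after rescaling and with each library left out.

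The other fallen clock genes were the nuclear receptors Rora and Rorb, the activator Clock, the PAR bZIP factor Hlf, and the repressors Cry1 and Per2. Clock was at 13.3, 12.3 and 11 TPM at 12m and at 6.80, 6.34, 5.62 and 6.93 TPM at 18m. Rorb fell from 33.3 ± 2.50 to 17.1 ± 4.91 TPM and Hlf from 31.4 ± 4.91 to 16.7 ± 1.80 TPM. These 6 genes have long transcripts and were not called after the length trend was removed. The members with the largest daily swing in most tissues did not go the same way. Dbp was at 185.1, 146.5 and 577.3 TPM at 12m and at 301.4, 336.9, 523.8 and 482.6 TPM at 18m, and Nr1d1 was at 95.8, 75.8 and 298.9 TPM and at 164.2, 160.5, 215.5 and 183.2 TPM. In both genes 12m replicate 3 was more than 2 times as high as the other 12m libraries, and neither was called with or without that library (adjusted p = 0.0550 for Dbp and 0.0787 for Nr1d1 without it). Without 12m replicate 3, 8 clock genes were called lower, without 18m replicate 1 there were 5, and after rescaling there were 6. The shares of all genes tested in these settings were 10.1%, 5.22% and 6.86%.

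**Figure D4:**
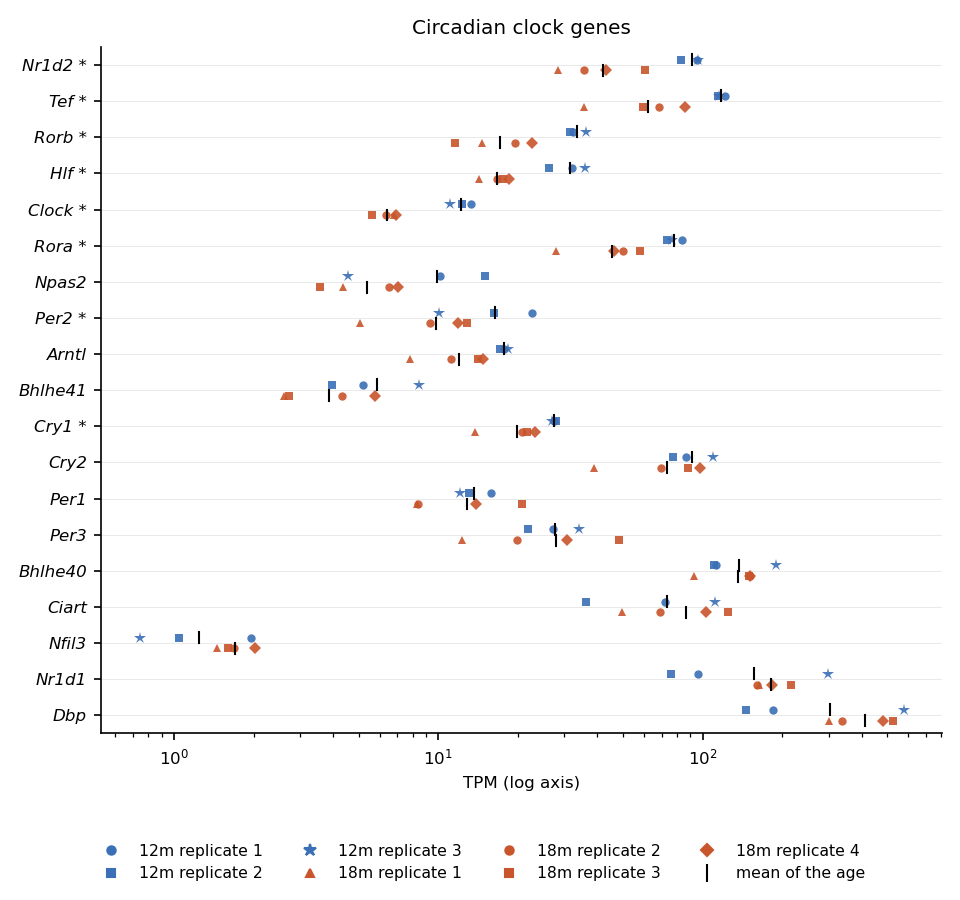
TPM on a log axis in each library for the 19 clock genes tested, ordered by log2 fold change, with an asterisk for genes called at an adjusted p under 0.05. Blue symbols are 12m, orange symbols 18m and black ticks the means; Nr1d2, Tef, Rorb, Hlf, Rora and Clock are separated by age, whereas in Dbp, Nr1d1 and Ciart 12m replicate 3 (star) lies apart from the other 12m libraries.

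The E-box CACGTG is the sequence bound by the CLOCK and BMAL1 heterodimer. Promoter windows from 250 bases before to 50 bases after the start, from RefSeq on GRCm38.p6, were found for 7 of the 8 fallen clock genes, and 2 of these windows held the motif, on either strand since it is its own reverse complement. Of all 32851 promoter windows 7.15% held it. The 2 windows are shown 5′ to 3′ on the strand of the gene with the motif in capitals, Cry1 at chr10:85185005-85185304 on the minus strand and Tef at chr15:81802423-81802722 on the plus strand. A match is a description of these letters and not evidence of binding.
Cry1: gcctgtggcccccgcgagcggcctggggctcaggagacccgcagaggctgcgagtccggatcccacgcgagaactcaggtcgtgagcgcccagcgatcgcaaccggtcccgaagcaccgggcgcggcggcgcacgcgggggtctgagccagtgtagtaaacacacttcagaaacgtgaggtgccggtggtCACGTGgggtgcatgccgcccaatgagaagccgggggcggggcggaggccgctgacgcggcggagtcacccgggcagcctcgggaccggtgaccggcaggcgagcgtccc
Tef: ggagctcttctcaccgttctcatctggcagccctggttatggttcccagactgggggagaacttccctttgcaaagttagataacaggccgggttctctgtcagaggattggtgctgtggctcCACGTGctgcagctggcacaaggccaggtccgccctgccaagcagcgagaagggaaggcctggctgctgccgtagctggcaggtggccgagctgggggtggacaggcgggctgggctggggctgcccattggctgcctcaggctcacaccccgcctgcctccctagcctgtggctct

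Targets of the glucocorticoid receptor were variable at 12m. Zbtb16, a zinc finger repressor induced by glucocorticoids, had the largest negative fold change of the list, at 33.0, 24.4 and 7.44 TPM at 12m and at 3.35, 5.01, 0.835 and 7.90 TPM at 18m (-2.09 ± 0.41, adjusted p = 0.00317). The value of 12m replicate 3 lay within the 18m range, and the call held in both length settings and with each library left out. Pdk4 fell 1.51-fold and was not called without the trend on the longest transcript (adjusted p = 0.186). Tsc22d3 (GILZ), an anti-inflammatory target chosen after its values were seen, was at 1956, 2087 and 359.7 TPM at 12m and at 492.8, 622.5, 378.0 and 1033 TPM at 18m. It was not called with all libraries (-0.95 ± 0.42, adjusted p = 0.108) and was called without 12m replicate 3 (-1.78, adjusted p = 0.00574). In the whole list 2 of 13 genes fell with all libraries, against 18.6% of all genes tested. Without 12m replicate 3 the count was 5 of 13, against 10.1%, and without 18m replicate 1 it was 1 of 13, against 5.22%.

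Falls of moderate size were found in cholesterol synthesis. Of 24 tested genes 8 fell and 0 rose, against 18.6% and 1.52% of all genes tested. The list median was -0.28, against -0.21 for all genes. Hmgcs1, which makes HMG-CoA, was at 237.8, 246.9 and 249.6 TPM at 12m and at 111.3, 129.7, 186.2 and 148.5 TPM at 18m (-0.79 ± 0.19, adjusted p = 0.00688, and 0.121 without the trend on the longest transcript). Lss, Idi1, Cyp51, Hsd17b7 and Sc5d, which encode other enzymes of the pathway, fell by 1.33-fold (Sc5d) to 1.77-fold (Lss). Stard4, a cytosolic sterol carrier, fell from 8.29, 7.65 and 8.04 TPM to 2.71, 3.95, 2.7 and 3.21 TPM, and it was the only one of the 8 to hold in both length settings. The median of the list without the length trend was -0.02. Without 18m replicate 1, 3 of 24 genes fell, against 5.22% of all genes tested.

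Lipid transport and fatty acid genes were mixed. Abca1, the cholesterol efflux pump, fell 1.96-fold and the sterol acyltransferase Soat1 fell 1.48-fold, while Lcat, the secreted cholesterol acyltransferase, rose 1.33-fold with overlap between ages. None of the 3 was called without 18m replicate 1 or without the trend on the longest transcript (adjusted p = 0.15, 0.714 and 0.224). Of 23 genes of fatty acid oxidation and ketone metabolism 5 fell, a share near the 18.6% of all genes tested. Without 18m replicate 1 there was 1 fall, against 5.22% of all genes tested. After removal of the trend on the longest transcript 0 genes were called. Ppara, the nuclear receptor that controls this program, was at 16.4, 16.6 and 16.1 TPM at 12m and at 6.15, 10.7, 3.80 and 11.4 TPM at 18m (-1.05 ± 0.22, adjusted p = 0.00408, and 0.0504 without the trend on the longest transcript). Acsl3, an acyl-CoA synthetase abundant in astrocytes, fell from 1625, 1687 and 1039 TPM to 574.6, 645.7, 537.5 and 796.3 TPM (adjusted p = 0.018, and 0.175 without that trend). Of 25 glycolysis and lactate genes 3 fell, against 18.6% of all genes tested, and Aldoa rose. The 3 were Hk1, the lactate transporter Slc16a1 and the brain glycogen phosphorylase Pygb. After rescaling the fatty acid list had 4 genes called higher and 3 lower and the glycolysis list 5 and 2. Of all genes tested 8.27% were called higher and 6.86% lower in that setting. The balance of these lists thus turned with the scaling, as it did over all genes.

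Rises were counted in the cytosolic ribosomal proteins, the respiratory chain and the proteasome. Of 49 cytosolic ribosomal protein genes 8 rose and 0 fell, against 1.52% of all genes that rose, with a list median of 0.22 and a median transcript length of 954 bases. Rpl6 was at 159.3, 157.9 and 122.4 TPM at 12m and at 242.2, 196.5, 210.8 and 195.8 TPM at 18m (0.53 ± 0.09, adjusted p = 0.00174). Rpl6 was the only ribosomal protein gene to hold in both length settings. Without 12m replicate 3 the list had 2 rises, against 1.49% of all genes tested, and without 18m replicate 1 it had 1, against 0.583%.

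Of 64 nuclear-encoded subunits of the respiratory chain 5 rose and 2 fell, against 1.52% and 18.6% of all genes tested. The complex I subunit Ndufa11 rose from 639.1 ± 38.1 to 843.5 ± 82.6 TPM, and Atp5g2, Ndufs8, Atp5o and Atp5g1 rose by 1.22-fold to 1.27-fold. The 2 subunits that fell have longer transcripts than the list median of 863 bases. They were Sdha, of complex II (310.6, 325.2 and 302.9 TPM against 171.6, 224.2, 228.7 and 247.4 TPM), and Ndufs1, of complex I (108.4 ± 0.71 against 80.9 ± 11.5 TPM). The list median without the length trend was -0.02. The counts were 3 higher and 2 lower without 12m replicate 3, and without 18m replicate 1 they were 2 and 2. Of all genes tested 1.49% rose and 10.1% fell in the first of these settings, and 0.583% and 5.22% in the second. Of 31 proteasome subunits 4 rose (Psmd8, Psmb6, Psma7 and Psmb3, by 1.18-fold to 1.22-fold) and 2 fell (Psmd2 and Psmd11), against the same shares of all genes. After rescaling 18 were called higher and 0 lower, against 8.27% and 6.86% of all genes in that setting. There were 2 rises and 0 falls without 12m replicate 3, and without 18m replicate 1 no subunit was called. None of the subunits called in this list or in the respiratory chain list held in both length settings.

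A set of 34 rises and 65 falls was called with all libraries, in both length settings, without 12m replicate 3 and without 18m replicate 1. These genes were selected on the same contrast, so their values are a description. The falls included receptors and signalling genes, of which the following examples were chosen after their values were seen. Fzd4, a Wnt and norrin receptor, was at 15.8, 11.3 and 13.7 TPM at 12m and at 4.26, 6.38, 5.43 and 4.56 TPM at 18m. Bmpr1a, a type I BMP receptor, was at 43.1, 44.3 and 43.4 TPM and at 15.9, 25.8, 24.9 and 25.5 TPM. Adra1a, an alpha-1 adrenergic receptor, fell from 8.79 ± 1.07 to 3.55 ± 2.08 TPM, and Wwtr1, the transcriptional coactivator TAZ, from 34 ± 2.73 to 16.7 ± 2.13 TPM (SD, n = 3 and 4). In each of these 4 genes the ages did not overlap. Itga6, the laminin-binding integrin subunit, Adam10, a membrane protease, Slc39a10, a zinc importer, and the abundant membrane glycoprotein Gpm6a fell by 1.75-fold to 1.99-fold. Nos1, the neuronal nitric oxide synthase, was at 1.39, 1.87 and 1.48 TPM at 12m and at 0.162, 0.0791, 0.0525 and 0.153 TPM at 18m.

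The following examples among the rises of that set were also chosen after their values were seen, and describe no list. Ppib, a cyclophilin of the endoplasmic reticulum, was at 490.7, 469.3 and 558.6 TPM at 12m and at 807.3, 721.4, 722.2 and 694.2 TPM at 18m. Krtcap2 and Tmem258, subunits of the oligosaccharyltransferase, rose 1.57-fold and 1.78-fold, and Erp29, a chaperone of the same compartment, rose as well. Lgals1, the beta-galactoside-binding lectin galectin-1, was at 120.3, 75.8 and 132.9 TPM and at 344.3, 215.9, 184.0 and 173.8 TPM. The actin-binding profilin Pfn1 rose from 544.4 ± 54.0 to 825.1 ± 97.0 TPM, and the spliceosomal core proteins Snrpg and Snrpd2 rose 1.71-fold and 1.51-fold. None of these genes overlapped between ages. The list of unfolded protein response genes, which also act in the endoplasmic reticulum, had 0 rises and 1 fall, Canx, among 21 tested. Of all genes tested 1.52% rose and 18.6% fell. Most of the rises named here are short transcripts. That each remained higher with either measure of length taken out was a condition of the set.

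Reactive astrocyte genes were not called. Of 13 pan-reactive, 12 neuroinflammatory and 10 ischaemia-type reactive genes tested, 0 rose and 0 fell with all libraries. Of all genes tested 1.52% rose and 18.6% fell, so 0 rises in lists of this size is near the share of all genes. The list medians were 0.12, 0.03 and 0.07, against -0.21 for all genes. Gfap, the intermediate filament protein of reactive astrocytes, was at 333.3, 292.5 and 953.8 TPM at 12m and at 582.2, 369.5, 447.4 and 256.9 TPM at 18m. The ages overlapped, the change was -0.19 ± 0.35 (adjusted p = 0.731), and it was 0.34 (adjusted p = 0.526) without the high value of 12m replicate 3. Serpina3n was at 24.9 to 30.5 TPM and 17.8 to 45.8 TPM, C4b at 39.4 to 59.6 TPM and 37.1 to 47.4 TPM, and C3 at 1.62 to 4.10 TPM and 1.37 to 4.95 TPM. None of the 15 complement genes, 14 genes of MHC class I presentation and 29 interferon-stimulated genes tested was called with all libraries, against the same shares. H2-K1, a classical MHC class I heavy chain, was at 227.6 to 316.8 TPM at 12m and 255.5 to 323.0 TPM at 18m (0.09 ± 0.16, adjusted p = 0.718).

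Calls appeared in these lists under other settings. The complement inhibitor Serping1, which is also on the neuroinflammatory list, the interferon-stimulated Ifi27 and the ischaemia-type S100a10 were called higher after rescaling. In that setting 8.27% of all genes tested were called higher, so 1 call in a list was near or below the share of all genes. Without 12m replicate 3, Fkbp5 of the neuroinflammatory list was called lower, where 10.1% of all genes tested were. Of 13 senescence-associated genes 1 fell with all libraries, Igfbp5, by 1.71-fold, against 18.6% of all genes tested. The cell cycle inhibitor Cdkn1a was at 106.9, 78.8 and 45.9 TPM at 12m and at 72.7, 67.5, 30.6 and 43.2 TPM at 18m, overlapping and not called (adjusted p = 0.264). Cdkn2a was in the table at levels below the limit for testing.

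MHC class II genes, which are typical of microglia, border macrophages and other antigen-presenting cells, included 2 of the rises. Of 6 tested genes H2-Ab1 and H2-Aa rose, against 1.52% of all genes tested. H2-Ab1 was at 8.55, 1.98 and 19.3 TPM at 12m and at 27.5, 18.5, 19.8 and 15 TPM at 18m (1.31 ± 0.46, adjusted p = 0.0446). H2-Aa was at 2.86, 1.93 and 4.61 TPM and at 7.76, 7.43, 7.42 and 5.53 TPM (1.0 ± 0.36, adjusted p = 0.0473). H2-Ab1 overlapped between ages through 12m replicate 3, and H2-Aa did not overlap. Neither was called without 18m replicate 1 (adjusted p = 0.152 and 0.130) or after removal of the trend on the longest transcript (0.155 and 0.178), although the changes there were of like size (1.23 and 0.90). Without 12m replicate 3, H2-Eb1 was called as well.

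The markers of microglia and macrophages did not rise with them. The 18 markers summed to 184.6 to 317.6 TPM at 12m and 140.7 to 265.4 TPM at 18m. Of the 18, 2 fell (11.1%, against 18.6% of all genes tested), Siglech and Itgam, and Itgam overlapped between ages. Neither was called without 18m replicate 1 (adjusted p = 0.0545 and 0.128) or after removal of the trend on the longest transcript (0.0981 and 0.615). P2ry12, a receptor of resting microglia, was at 16.0, 27.0 and 17.0 TPM at 12m and at 10.7, 14.8, 20.6 and 20.0 TPM at 18m. In bulk libraries fewer cells of a type and less RNA per cell cannot be told apart.

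Markers of fibroblasts and meninges had a higher summed level at 18m. Their 11 genes summed to 411.6 to 803.5 TPM at 12m and 827.9 to 1190 TPM at 18m, so that the sums did not overlap. Of the 11 genes, Slc6a13, a GABA transporter of the leptomeninges, was the only one called. It was at 53.7, 22.2 and 46.5 TPM at 12m and at 121.4, 80.9, 81.5 and 78.5 TPM at 18m (1.2 ± 0.33, adjusted p = 0.0131). Slc6a13 held in both length settings and was not called without 18m replicate 1 (adjusted p = 0.066) or without 12m replicate 2 (0.0931). The collagens Col1a1, Col1a2 and Col3a1 of the list were at 2.02 to 26.8 TPM in the 12m libraries and 3.39 to 25.5 TPM in the 18m libraries and overlapped. Decorin (Dcn) was at 121.1, 54.8 and 116.9 TPM and at 167.8, 131.5, 208.5 and 145.1 TPM, without overlap, and was not called (adjusted p = 0.0738). In all markers of the list but Pdgfra, and in Inmt and Serpinf1 above, the lowest of the 7 values was that of 12m replicate 2. The same held for Igfbp2, Plac9b, Plac9a, Tmem254b, Hpx, Emp3 and Cox8b among the largest rises, and not for Ctsw and Serf1. A lowest value in that library was therefore not particular to the meningeal list. The part of meningeal cells in the rises of Inmt, Serpinf1 and Igfbp2 was not tested.

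Of 14 neuron markers tested 4 fell (Syt1, Rbfox3, Map2 and Nefm) and 0 rose, against 18.6% and 1.52% of all genes tested. Without 18m replicate 1 only Syt1 was called, where 5.22% of all genes tested fell. The summed level of the markers was 150.8 to 492.5 TPM at 12m and 111.5 to 237.1 TPM at 18m. Rbfox3, the nuclear antigen NeuN, was at 10.9, 16.2 and 5.56 TPM at 12m and at 1.01, 4.78, 2.15 and 3.49 TPM at 18m. Camk2a, a kinase of excitatory neurons, was at 34.6, 53.4 and 1.07 TPM at 12m and at 0.266, 17.5, 3.56 and 15 TPM at 18m, so that 12m replicate 3 and 18m replicate 1 were the lowest of their ages. Camk2a was not called (adjusted p = 0.424). The median transcript length of the neuron markers was 3308 bases, near the 3084 bases of all genes tested. None of the 14 was called without the length trend, where the list's median change was -0.50, against -0.83 with all libraries as deposited.

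Myelin transcripts varied by library more than by age. Mbp, myelin basic protein, was at 982.7, 1449 and 12.3 TPM at 12m and at 1.30, 179.0, 213.9 and 578.2 TPM at 18m, and none of the 14 oligodendrocyte markers was called. Endothelial, pericyte, ependymal, oligodendrocyte precursor and erythroid markers also gave 0 calls with all libraries. Cldn5, the tight junction protein of brain endothelium, was at 261.7 to 490.9 TPM and 149.9 to 461.7 TPM, and Hba-a1, alpha globin, at 2241 to 8874 TPM and 1944 to 6969 TPM. Ddx3y and Eif2s3y, which lie on the Y chromosome, were detected in each of the 7 libraries, at 18.9 to 49.8 TPM and 32.6 to 159.6 TPM, and were not called.

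**Figure D5:**
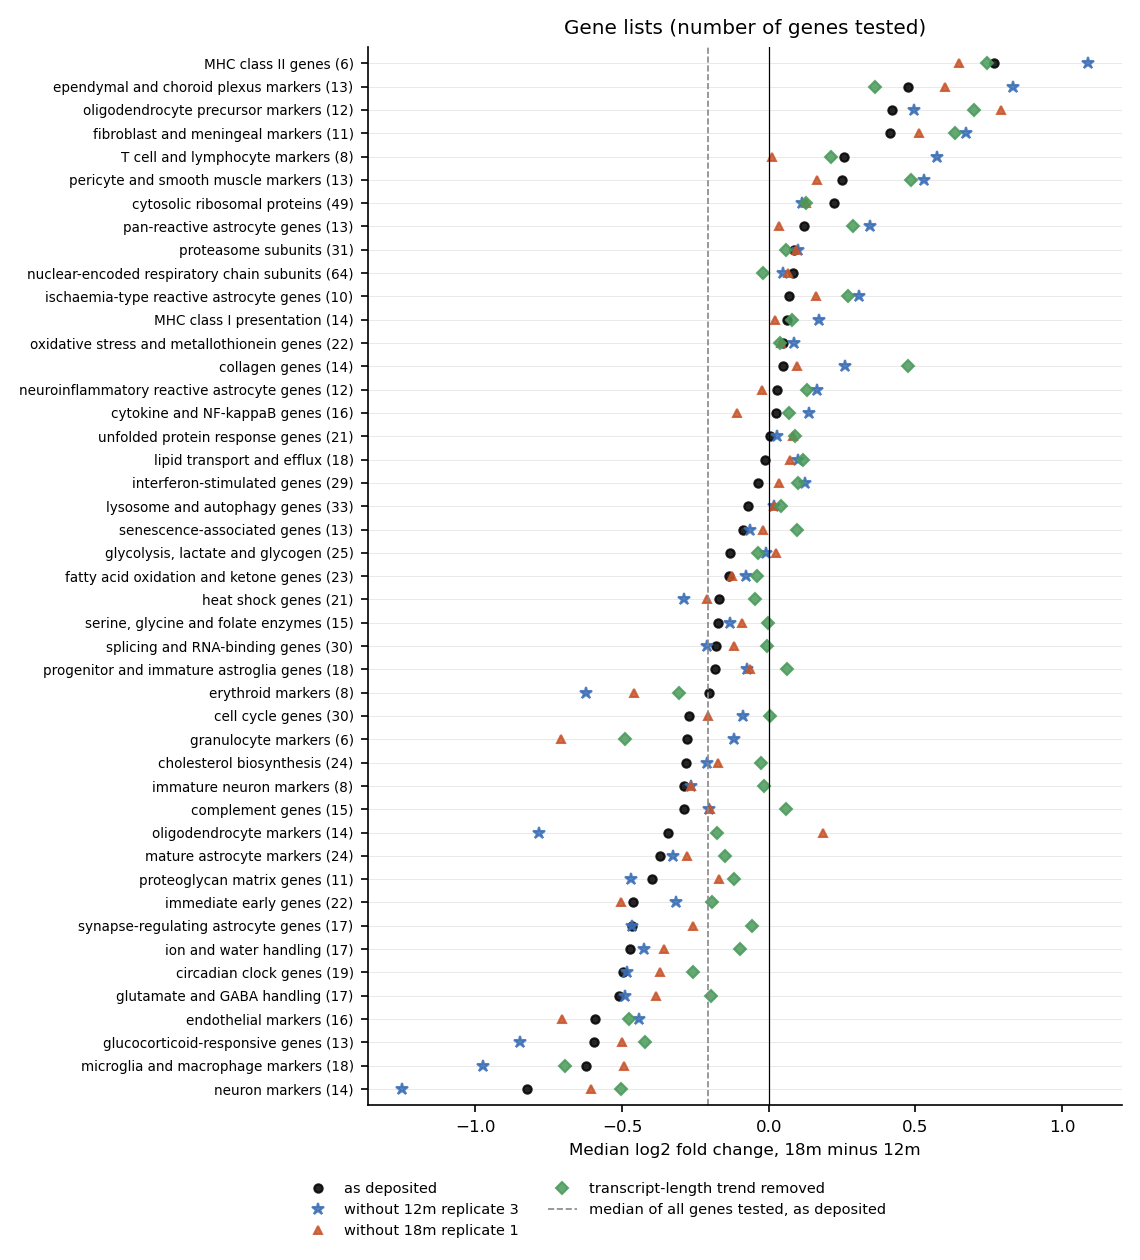
The horizontal axis gives the median log2 fold change, 18m minus 12m, of the tested genes of each list, whose number stands in parentheses. Black circles are all libraries as deposited, stars without 12m replicate 3, triangles without 18m replicate 1, diamonds after removal of the trend on the longest transcript, and the dashed line the median of all genes tested (-0.21); neuron, microglial and glucocorticoid lists lie lowest, MHC class II genes highest, and for uptake, ion, matrix and synapse lists the diamonds lie closer to 0 than the circles.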

How the data were processed

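Polyadenylated RNA of cortical astrocytes was measured in 34 libraries of 9 ages, of which 3 at 12 months (12m) and 4 at 18 months (18m) were compared. The deposited values are TPM, made by the authors; per the submitters' processing notes the tools were STAR 2.7.1a, RSEM 1.2.28, Trim Galore 0.6.4 and DESeq2 1.36.0 and the build was mm10, with no role given for any. The depth of the libraries is unknown. Of 20613 genes with values, the 14590 with at least 1 TPM in at least 3 of the 34 libraries were tested on log2(TPM + 1) with limma 3.58.1 in R 4.3.3 (trend and robust empirical Bayes, statmod 1.5.0), with 1 mean per age over all libraries, a two-sided test and Benjamini-Hochberg adjustment. Simulated data with known changes were used to check the script. Positions and transcript lengths came from GENCODE M21 (GRCm38), for 14564 tested genes. For the length settings a lowess curve (span 0.3) of level minus the gene's mean over all libraries, against log10 transcript length, was removed from each library. Median-of-ratios factors used the 14153 genes above 0 in all libraries.

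The comparison, the 45 gene lists and the rule for named genes were chosen with earlier results of these data known. The rule took the 12 largest rises and falls among genes called with and without 12m replicate 3, with a mean of at least 5 TPM at the higher age, no overlap, and a symbol that is neither a predicted or clone name nor shared by several identifiers, up to 3 called members of smallest p of each list, and a fixed set of marker genes. Genes beyond it were chosen after their values were seen. Alternatives were another pseudocount, other filters, rescaling, quantile normalization, fits of fewer libraries, array weights, a replicate block and the length settings. A few genes of the lists are counted in them and not reported by name here.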

Additional observations from a re-analysis of the deposited data

Results flagged for a closer look

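Among the 4 libraries at 18m, a value was marked where its gap to the nearest other library was a larger part of the whole range than Dixon's 95% critical value for 4 values, a limit that chance passes in about 1 in 20 groups. Of 110 named genes 12 were marked, and of 45 list means 2, and 8 of these 14 marks were at replicate 1. On the log2(TPM + 1) scale, replicate 1 lay below the other 18m libraries for Abat (5.67), Abca1 (3.55), Canx (6.21), Hk1 (4.54), Igfbp5 (3.36) and Psmd2 (6.22), which all fell from 12m to 18m. It lay above them for Ctsw (4.38) and Slc6a13 (6.94), which rose. Replicate 2 lay below the others for Inmt (4.36) and above them for Itgam (0.49) and Mmp9 (1.91), and replicate 4 lay below them for H2-Aa (2.71). The mean log2(TPM + 1) of the MHC class II list was lowest in replicate 4 (3.01), and that of the interferon-stimulated list was highest in replicate 3 (4.13).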

How the results depend on the processing

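With all libraries 2940 genes were called, 222 higher and 2718 lower. Counts within 1.5 times of these in both directions came from a pseudocount of 0.1, 3040 (229 higher and 2811 lower), no filter on low values, 2592 (175 higher and 2417 lower), and both stricter filters. The fit of the 7 libraries alone gave 0, and the fit of the 6 libraries without 12m replicate 3 gave 15 (7 higher and 8 lower); both take the spread from these libraries only and have few residual degrees of freedom. Array weights gave 5650 (1383 higher and 4267 lower) and quantile normalization 1165 (430 higher and 735 lower). Median-of-ratios rescaling gave 2207 (1206 higher and 1001 lower), 1598 (733 higher and 865 lower) without 12m replicate 3 and 636 (281 higher and 355 lower) without 18m replicate 1. Leaving out 1 library at a time gave 847 to 3346 calls, 67 to 217 higher and 762 to 3133 lower, with the lowest count without 18m replicate 1, and leaving out both 12m replicate 3 and 18m replicate 1 gave 215 (64 higher and 151 lower). Removal of the trend on the longest transcript gave 204 (128 higher and 76 lower), 344 (168 higher and 176 lower) without 12m replicate 3, 44 (27 higher and 17 lower) without 18m replicate 1 and 151 (62 higher and 89 lower) without both. The trend on median length gave 373 (187 higher and 186 lower). The cause of these differences was not tested. The length settings, and those that combine them or rescaling with left-out libraries or leave out 2 libraries, were chosen after seeing the data.

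The replicate numbers did not pair the libraries, since same-numbered libraries of the 2 ages had correlations of deviations from their age means of -0.141, 0.234 and 0.117. A fit with the replicate number as a block gave 3791 (238 higher and 3553 lower).

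Of the named genes, 17 changed sign in some setting, none with a call there; 3 of them were called with all libraries (Gclm, Hnrnpu and Sox11, all lower) and 14 were not. The log2 fold changes of changed sign are given in parentheses. With array weights the sign changed for H2-K1 (-0.009075), S100b (-0.0507). With both 12m replicate 3 and 18m replicate 1 left out the sign changed for Aldoc (-0.10), C4b (0.07073), Ddx3y (0.05912), Gfap (0.16), S100b (-0.21). In the fit of 6 libraries the sign changed for Gfap (0.34), S100b (-0.33). With the length trend removed the sign changed for C4b (0.26), Ddx3y (0.19), Gclm (0.05475), Glul (0.13), Sox11 (0.06637). With that trend removed and 12m replicate 3 left out the sign changed for C4b (0.34), Ddx3y (0.30), Gclm (0.01705), Gfap (0.43), S100b (-0.42), Sox11 (0.02151). With that trend removed and 18m replicate 1 left out the sign changed for C4b (0.22), Ddx3y (0.15), Glul (0.10), Hnrnpu (0.05867), Mbp (0.35). With that trend removed and both left out the sign changed for Aldoc (-0.0736), C4b (0.31), Ddx3y (0.26), Gfap (0.17), Hnrnpu (0.01703), S100b (-0.33). After rescaling the sign changed for C4b (0.09454), Ddx3y (0.06791), Gfap (0.05907), Glul (0.21), Hba-a1 (0.14). After rescaling without 12m replicate 3 the sign changed for C4b (0.18), Cldn5 (0.12), Ddx3y (0.17), Gfap (0.53), S100b (-0.14). After rescaling without 18m replicate 1 the sign changed for C4b (0.06882), Ddx3y (0.03647), Glul (0.16), Mbp (0.22), P2ry12 (0.0579). After quantile normalization the sign changed for Ddx3y (0.001343), P2ry12 (0.001764). With the trend on median length removed the sign changed for C4b (0.28), Ddx3y (0.22), Gfap (0.02357), Glul (0.19), Hnrnpu (0.001106), Sox11 (0.07211).

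With 1 library left out at a time the range reached both signs for C3 from -0.01418 to 0.47, Ddx3y from -0.60 to 0.07619, Eif2s3y from -0.13 to 1.0, Gfap from -0.51 to 0.34, Glul from -0.31 to 0.16, H2-K1 from -0.04995 to 0.19, Hba-a1 from -0.53 to 0.46, Mbp from -3.82 to 0.07917, S100b from -0.33 to 0.52, Serpina3n from -0.04516 to 0.39. Without a depth for any library, the precision of genes of low level cannot be stated.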

Other observations

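Some genes of other lists were called as well. With all libraries the shares that fell were below or near the 18.6% of all tested genes, so those counts of falls show nothing particular to these lists. Among 18 progenitor and immature astroglia genes Egfr, the epidermal growth factor receptor, fell from 27.3, 26.7 and 35.9 TPM at 12m to 9.16, 20.0, 20.4 and 17.2 TPM at 18m, Ptprz1 and Sox11 fell and Igfbp2 rose. Egfr was called with each library left out (adjusted p = 0.00547 with all libraries) and not after removal of the trend on the longest transcript (0.148). Slc7a11, the cystine and glutamate exchanger, fell from 60.8, 59.6 and 62.5 TPM to 25.3, 35.4, 38.9 and 38.8 TPM, and Gclm, a subunit of the first enzyme of glutathione synthesis, fell from 183.5 ± 7.49 to 142.6 ± 7.02 TPM (SD, n = 3 and 4). They were the only calls among 22 oxidative stress and metallothionein genes, and neither was called in either length setting. Of 30 cell cycle genes 4 fell, among them the ribonucleotide reductase subunits Rrm1 and Rrm2, which fell 1.51-fold and 1.52-fold, and none of the 4 was called without 12m replicate 3. Of 22 immediate early genes 2 fell, Fosl2 and Nr4a3, both with means of only a few TPM. Without 12m replicate 3, 5 of the 22 were called lower, against 10.1% of all genes tested in that setting.

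The serine racemase Srr, the glycine decarboxylase Gldc and the lipoamide dehydrogenase Dld fell among 15 genes of serine, glycine and folate metabolism. Lamp2 and Ulk1 fell among 33 lysosome and autophagy genes, Hspa4 and Chordc1 among 21 heat shock genes, and Vcam1 among 16 cytokine and NF-kappaB genes. Of 30 splicing and RNA-binding genes 4 fell, among them Srsf10, Luc7l2 and Hnrnpu. None of the genes called in these 5 lists held in both length settings.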
